A study of Rattus norvegicus with 10 samples.

Results

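Oxytocin and arginine vasopressin were followed through the genes that encode their precursors, Oxt and Avp, in the hypothalamus of weaning-stage rats. The members were all probe sets that the annotation of the Rat Genome 230 2.0 array assigns to Oxt or to Avp alone, which gave 1 probe set for each gene. These are 2 of 31042 probe sets, of which 20826 name 1 gene, and 0 of the 436 probe sets that name several genes name Oxt or Avp. Hypothalamic RNA from 10 male Wistar rats was hybridized to 1 array per rat. All rats were 3 weeks old at the start, ate powdered feed for 2 days, and were then given solid chow (C group, 5 rats) or powdered feed (P group, 5 rats) for 8 days with free access to water. The comparison asks whether the texture of the feed, and with it the amount of chewing, goes with a difference in hypothalamic mRNA. Rats are named below by feed and number, and all values are log2 signals, so that a difference of 1 is a 2-fold change.

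Oxytocin and vasopressin are closely related peptides that are cut out of larger precursors together with their carrier proteins, the neurophysins. The large (magnocellular) neurons of the paraventricular and supraoptic nuclei make them and send axons to the posterior pituitary, where the peptides enter the blood. Oxytocin acts on milk release, birth and social behavior, and vasopressin on water retention in the kidney and on blood pressure. Smaller neurons of the paraventricular nucleus also make both peptides, and the suprachiasmatic nucleus, the circadian clock of the brain, makes vasopressin. A piece of whole hypothalamus holds all of these cells, and in such bulk tissue fewer cells of a type and less RNA per cell cannot be told apart.

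In the rat assembly GRCr8, Oxt lies on the plus strand of chromosome 3 (chr3:138235754-138236594) and Avp on the minus strand (chr3:138246544-138248522). The genes are transcribed toward each other, with 9949 bases and 0 annotated genes between them. The 250 bases before each start are shown because these neighboring genes are read side by side in the results and differ in the short motifs that their promoters hold. Both are RefSeq sequences, written 5′ to 3′ along the gene, at chr3:138235504-138235753 for Oxt and chr3:138248523-138248772 for Avp.
Oxt: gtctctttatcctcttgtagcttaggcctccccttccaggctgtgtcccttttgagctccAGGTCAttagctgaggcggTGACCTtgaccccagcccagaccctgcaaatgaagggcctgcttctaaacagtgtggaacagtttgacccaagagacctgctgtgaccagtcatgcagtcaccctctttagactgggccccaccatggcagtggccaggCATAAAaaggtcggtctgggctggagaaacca
Avp: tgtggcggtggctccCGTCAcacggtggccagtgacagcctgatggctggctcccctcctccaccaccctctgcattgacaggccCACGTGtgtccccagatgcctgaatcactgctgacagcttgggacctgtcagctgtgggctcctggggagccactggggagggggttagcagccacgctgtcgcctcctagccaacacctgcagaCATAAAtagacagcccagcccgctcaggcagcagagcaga
Capitals mark the motifs searched, namely AGGTCA of nuclear receptors, CACGTG of E-boxes, TGACG of cAMP response elements and the TATA-like CATAAA, each on either strand. The motifs were chosen with the sequences in view and do not overlap each other here. The Oxt promoter holds AGGTCA, the core motif of many nuclear hormone receptors, at 190 to 185 bases before the start and again on the other strand, written TGACCT, at 171 to 166 bases before it. The Avp promoter holds CACGTG, an E-box of the kind that circadian clock factors bind, at 165 to 160 bases before the start, and TGACG, a core of cAMP response elements, on the other strand at 235 to 231 bases before it. Both hold the TATA-like CATAAA, at 32 to 27 bases before the start of Oxt and at 40 to 35 bases before that of Avp. Of 33469 promoters searched in the same way, 14.1% held AGGTCA, 5.59% CACGTG, 18.2% TGACG and 11.4% CATAAA. These matches describe the letters of the window and were not tied to the signals below.

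Most probe sets hardly varied between the rats. An SD over the 10 arrays below 0.001 was found for 28736 probe sets (92.6%) and an SD above 0.1 for 1391 (4.48%). Array medians lay between 7.37 and 7.38 and pairwise correlations between 0.997 and 0.999. Markers of the leptomeninges, the membranes around the brain, set Chow 1 and Chow 4 apart at the high end, since the mean deviation of its 14 varying genes from their average over all rats was 0.80 and 0.64 in these and at most 0.41 in the other 8 rats. At the low end Powder 1 was at -0.67, and the next lowest rat at -0.41. Cga and Tshb, subunits of pituitary glycoprotein hormones, set Chow 4 (9.85 and 7.68) and Chow 5 (8.48 and 6.73) apart from the other 8 rats (6.36 to 6.64 and 6.01 to 6.25). Results for Oxt and Avp are therefore also given without each of these pairs of rats. Of 14 markers of hypothalamic neurons 13 were measured, and 8 of them, Hcrt (the orexin precursor) and Pmch (the precursor of melanin-concentrating hormone) among them, varied with an SD above 0.1. Variation between rats does not show which tissue was cut, so it is no check of the label. Pomc, Ghrh, Nkx2-1 and Otp were flat, with an SD below 0.001, so their presence could not be read from these values.

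Rank products called Oxt lower in chow-fed rats, and limma did not after adjustment over all probe sets. Its signal was 10.23 in Chow 1, 10.46 in Chow 2, 10.43 in Chow 3, 10.21 in Chow 4 and 10.12 in Chow 5. In the P group it was 10.74 in Powder 1, 10.52 in Powder 2, 10.47 in Powder 3, 10.26 in Powder 4 and 10.71 in Powder 5. Powder 1 and Powder 5 were the highest rats and Chow 5 the lowest, and the groups overlapped only through Powder 4, which fell among the C rats. The mean was 10.29 ± 0.15 for C rats and 10.54 ± 0.19 for P rats (SD, n = 5 each). Taking each C rat against each P rat, the C rat was lower in 23 of 25 pairs, 5 of 5 lay below the mean of the P group, and 3 of 5 lay below every P rat.

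The difference (C minus P) for Oxt was -0.25 with a standard error (SE) of 0.11 and a 95% confidence interval of -0.49 to -0.01 by limma, that is, a 16.1% lower signal in the C group. It was 1.47 times the within-group SD. The exact two-sided permutation test of 5 against 5 rats gave p = 0.0397, where the smallest p possible is 0.00794. It is 1 of 3 such tests in this comparison, none adjusted for the others, and p-values measure the spread between rats read on 1 array each. Rank products, the method of the study, called Oxt lower at a false discovery rate (FDR) of 0.000909. The call was lost with rank sums (FDR 0.297) and with limma, where the unadjusted p was 0.0402 and the adjusted p over all probe sets 0.9995. Without Chow 1 and Chow 4 the difference was -0.21 (FDR 0.00356), and without Chow 4 and Chow 5 it was -0.17 (FDR 0.00352).

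Avp varied more between rats than it differed between diets. The Avp signal was 12.33 in Chow 1, 11.86 in Chow 2, 11.32 in Chow 3, 11.57 in Chow 4 and 12.04 in Chow 5. In the P group it was 12.12 in Powder 1, 11.76 in Powder 2, 11.67 in Powder 3, 11.77 in Powder 4 and 12.45 in Powder 5. The C group held both the second highest rat, Chow 1, and the 2 lowest, Chow 3 and Chow 4, and its range spanned most of the P group. Over all rats Avp covered 1.13 log2 units (2.19-fold), and its SD of 0.35 ranked 157 among all probe sets. Oxt covered 0.62 (1.54-fold), with an SD of 0.21 that ranked 447.

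The mean of Avp was 11.82 ± 0.40 for C rats and 11.95 ± 0.33 for P rats (SD, n = 5 each). Its difference of -0.13 (SE 0.23, 95% confidence interval -0.63 to 0.37 by limma) was 0.357 times the within-group SD. The groups overlapped, with C rats lower in 15 of 25 pairs. The medians ran the other way, at 11.86 for C rats and 11.77 for P rats. An exact two-sided permutation test gave p = 0.587 and limma p = 0.574 before adjustment. Rank products nevertheless called Avp lower in the C group at an FDR of 0.0157. That call was lost when Chow 3 (-0.0027), Chow 4 (-0.07), Powder 1 (-0.09) or Powder 5 (-0.0052) was left out, with rank sums (FDR 1) and by limma (adjusted p = 0.9995). It stood without Chow 1 and Chow 4 (-0.21, FDR 0.0201) and was lost without Chow 4 and Chow 5 (-0.12, FDR 0.0556).

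**Figure D1:**
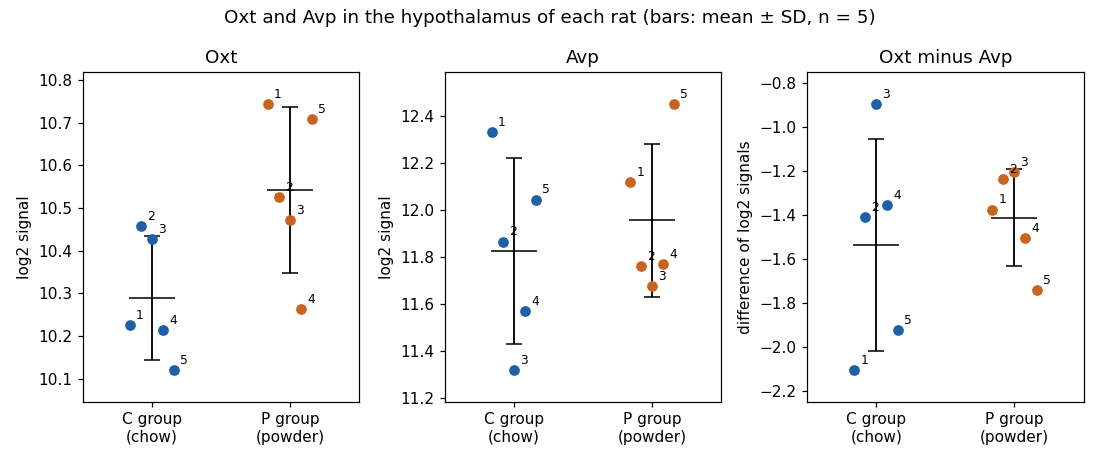
Log2 signal of Oxt (left), of Avp (middle) and their difference within each array (right) for each of the 10 rats, numbered within the C and P groups, with the group mean and SD (n = 5). For Oxt only Powder 4 falls among the C rats, at 10.26, whereas for Avp the C rats reach from 11.32 to 12.33 and take in 4 of the 5 P rats.

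Both members were thus among the probe sets that rank products called lower in the C group, 253 of 31042 (0.815%). The calls gathered among varying probe sets, since 206 of the 253 fell among the 1391 probe sets with an SD above 0.1, of which they are 14.8%. Against these varying probe sets alone neither member was called (FDR 0.834 for Oxt and 1 for Avp). An absolute difference larger than that of Oxt was found for 88 probe sets and larger than that of Avp for 354. By limma, 1100 probe sets (3.54%) had an unadjusted p below 0.05 in either direction, Oxt among them and Avp not, and 0 passed after adjustment (smallest adjusted p = 0.986).

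**Figure D2:**
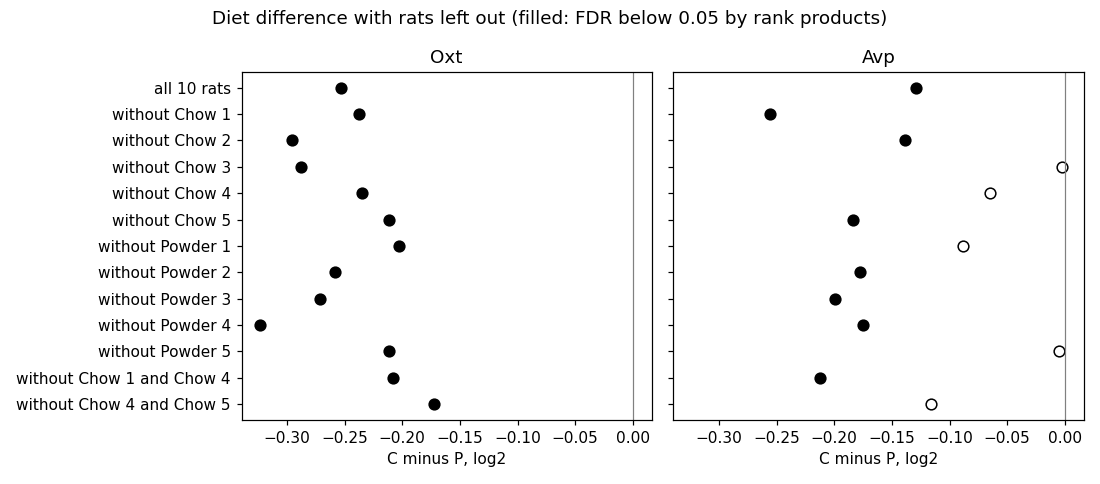
Diet difference (C minus P, log2) of Oxt (left) and Avp (right) over all 10 rats, with each rat left out, without Chow 1 and Chow 4, and without Chow 4 and Chow 5. Filled points were called lower by rank products (FDR below 0.05): Oxt stayed between -0.32 and -0.17 and filled throughout, while Avp reached -0.0027 without Chow 3 and is open for 4 of the 10 single rats and without Chow 4 and Chow 5.

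Whether diet went with one gene more than with the other was asked through the difference of the signals within each array. The size of that difference has no meaning between probe sets, but its change between rats does. Oxt minus Avp was -2.10, -1.41, -0.89, -1.35 and -1.92 in Chow 1 to Chow 5. In Powder 1 to Powder 5 it was -1.37, -1.23, -1.20, -1.51 and -1.74. Chow 1 and Chow 5, with high Avp and low Oxt for their group, gave the lowest values, and Chow 3, with low Avp and high Oxt, the highest. The group means of -1.54 ± 0.48 and -1.41 ± 0.22 (SD, n = 5 each) differed by -0.12 (exact two-sided permutation p = 0.595). A stronger association of diet with Oxt than with Avp was therefore not shown, and the sign turned without Chow 1 (0.02) and without Chow 1 and Chow 4 (0.0044).

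No covariation of Oxt and Avp between rats passed a test at this number of rats. Pearson's r was 0.24 (permutation p = 0.492) and Spearman's rho 0.24 (permutation p = 0.512) over the 10 rats. With each gene centred on its group mean, r was 0.16 (exact permutation p = 0.661 within diets). Without Chow 1 and Powder 5, the rats farthest from the median of Avp, r was 0.19 (exact permutation p = 0.658, n = 8). Leaving out 1 rat gave r from -0.05 (without Powder 5) to 0.45 (without Chow 1), so the sign of the pooled value rested on Powder 5.

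The pattern differed in form between the diets, which was not tested. In the P group all 5 rats lay on the same side of the group mean in both genes: Powder 1 and Powder 5 were above it in both, and Powder 2, Powder 3 and Powder 4 below it in both. In the C group 2 of 5 rats did so, Chow 2 above and Chow 4 below in both. Chow 1 stood 0.51 above the group mean in Avp and 0.06 below it in Oxt (a deviation of -0.06). Chow 3 was the reverse, 0.14 above in Oxt with an Avp deviation of -0.51.

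**Figure D3:**
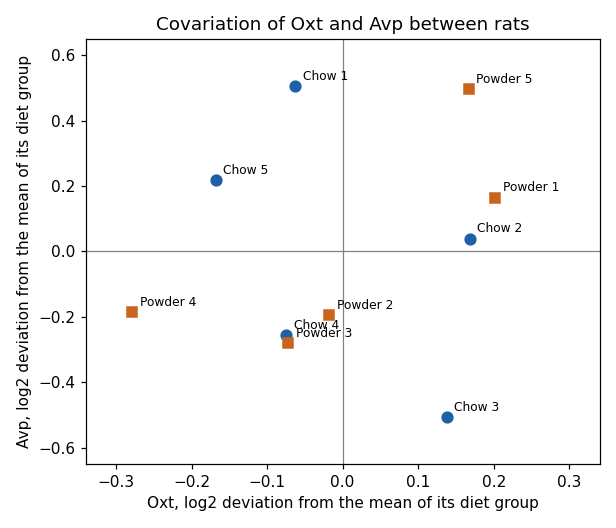
Deviation of each rat from the mean of its diet group in Oxt (horizontal axis, log2) and Avp (vertical axis, log2), with circles for the C group and squares for the P group. The 5 squares lie in the upper right and lower left quadrants, while Chow 1, Chow 3 and Chow 5 lie in the other quadrants.

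The genes whose signal ran most like each member were taken from 788 genes with an SD above 0.1, by Pearson's r over the 10 rats. These values are the extremes of many, were read on the same arrays as Oxt and Avp, and are given without a test. For Oxt the closest was Crh, the precursor of corticotropin-releasing hormone, which paraventricular neurons make to drive the stress axis (r = 0.84, rho = 0.72). Crh was 7.10, 7.50, 7.62, 7.39 and 7.31 in Chow 1 to Chow 5 and 7.84, 7.71, 7.28, 7.20 and 7.78 in Powder 1 to Powder 5. Powder 1 and Powder 5 were thus the highest 2 rats in both genes, and the correlation was as large within diets (r = 0.84) and 0.78 without Powder 1, the rat whose removal lowered it most. With Avp, Crh had an r of 0.07.

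Next to Crh came Cxxc4 (r = 0.79), an inhibitor of Wnt signaling, Spetex2l2 (0.77), Il22ra2 (0.75), a soluble interleukin receptor, and Itga1 (0.72), an integrin subunit that binds collagen. Itga1 fell into separate sets of rats, at 6.29 to 6.36 in Chow 4, Chow 5 and Powder 4 and at 7.07 to 7.61 in the other 7. The 3 rats of low Itga1 were among the 4 of lowest Oxt. Running opposite to Oxt were Tnfsf13, a cytokine of the tumor necrosis factor family (r = -0.82), Pvalb, the calcium-binding parvalbumin of fast-spiking interneurons (-0.82), and Txnip, an inhibitor of thioredoxin (-0.81). Within diets the r of these 3 lay between -0.76 and -0.71. Within diets the 5 genes most like Oxt had an r between 0.55 (Il22ra2) and 0.84 (Crh). All 5 were themselves called lower in the C group and the 3 opposite ones higher, where 14.8% and 20.4% of varying probe sets were. Nothing is read from these calls, since genes chosen for their r with Oxt, which itself differed by diet, have calls in these directions partly built in.

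For Avp the closest gene was Rnf6, a ubiquitin ligase (r = 0.83, rho = 0.68). Rnf6 also fell into separate sets, at 8.11 to 8.17 in Chow 1, Chow 5, Powder 1 and Powder 5 and at 7.11 to 7.34 in the other 6 rats, and the 4 high rats were the 4 of highest Avp. Slc35c2, a transporter of the Golgi and the gene most opposite to Avp (r = -0.78), was 7.87 in Chow 1, 7.89 in Powder 1 and 7.92 in Powder 5 and 8.14 to 8.24 in the other 7. These 3 rats of low Slc35c2 were the 3 of highest Avp, and they came from both diets.

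Kcnab1, a potassium channel subunit (r = 0.78), Lamp5, a membrane protein of neurons (0.76), Plcb1, a phospholipase C (0.74), and Reln, the matrix protein reelin (0.71), completed the 5 genes most like Avp. Chow 1, the second highest rat in Avp, was the highest of all in these 4 genes, at 9.00, 8.69, 10.37 and 9.83. Lamp5 is also on the list of cortex and hippocampus markers, whose score was highest in Chow 1 (0.64, described below). Whether such tissue added to these signals was not tested. Without Chow 1 the r of these 4 genes with Avp lay between 0.67 (Plcb1) and 0.90 (Reln). Bmp4, a growth factor (-0.75), and Lcn2, an iron-scavenging lipocalin (-0.73), ran opposite. Of the 8 genes, Lamp5 was called lower and Bmp4 higher in the C group, and the other 6 were not called, against the same 14.8% and 20.4%.

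**Figure D4:**
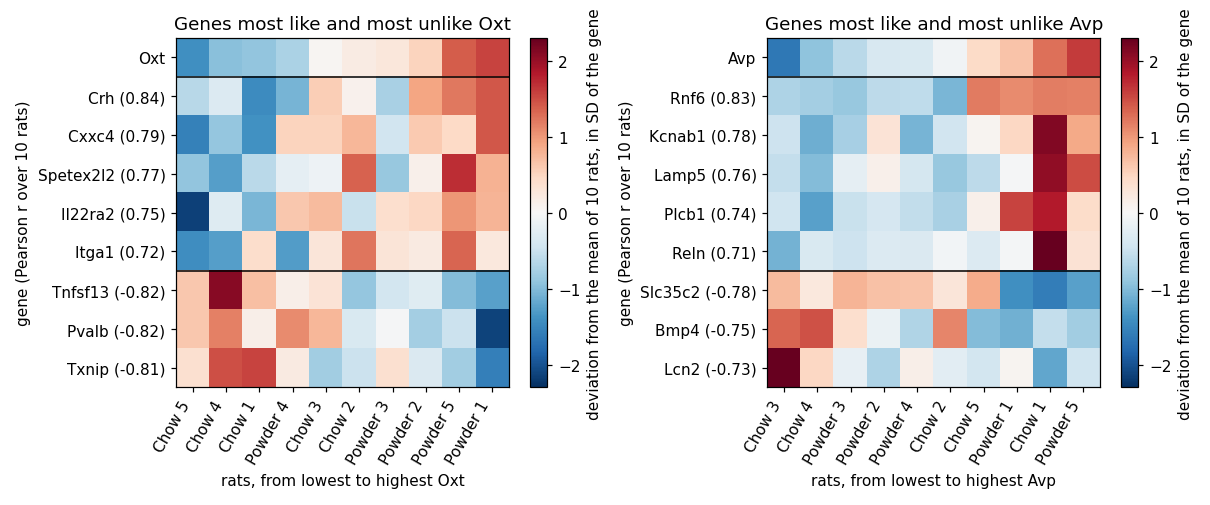
Deviation of each rat from the 10-rat mean, in units of the gene's own SD, for Oxt (left) and Avp (right) in the top row, the 5 genes of highest Pearson r with it, and the 3 of lowest (r in brackets), with rats ordered from lowest to highest Oxt or Avp. Colors turn from blue to red along the top 6 rows and the other way in the lowest 3, with an r of 0.84 for Crh and Oxt and 0.83 for Rnf6 and Avp.

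The pathway around the hormones was read from 7 lists ordered by role, of which 74 of 80 genes were measured. The lists were chosen with earlier results of these data known. They hold genes that the study reported as changed, Crh, Trh, Cartpt and Cck among them. The counts below therefore cannot show that these genes were called more often than others. Rank products called 7 lower and 7 higher in the C group and did not call 60, where 0.815% of all probe sets were called lower and 0.944% higher. Of the 74 genes 44 were flat (SD below 0.001) and 18 had an SD above 0.1. Among the latter 12 were called, where 14.8% of varying probe sets were called lower and 20.4% higher. The median difference over the 74 genes was -1.1e-05, against -2.7e-06 over all probe sets. Rank sums and limma with adjusted p called 0 of them, and 4 had an unadjusted limma p below 0.05. These were Vgf and the flat Avpr1b, Caprin2 and Kcnk1, whose differences were only 0.000124, -0.000129 and -0.000116.

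All 5 measured receptors and breakdown genes were flat, so that they cannot show whether their mRNA differed by diet. This holds also for Avpr1b, with an unadjusted limma p of 0.0255 at a difference of 0.000124. Their signals were 6.22 for Oxtr, the oxytocin receptor, 6.70 for Avpr1a, 6.56 for Avpr1b and 6.66 for Avpr2, the vasopressin receptors, and 6.50 for Lnpep, the peptidase that degrades both hormones. The largest of their differences was 0.000136 in size, and Cd38, which takes part in oxytocin release, was not matched. Of the genes that cut and pack the prohormones 13 were measured and 9 were flat. Among them only Vgf, a granin of secretory granules, was called, lower in the C group (-0.08, SE 0.03, FDR 0.0174). The convertase Pcsk2, the carboxypeptidase Cpe and the amidating enzyme Pam, which act on both precursors, were flat. Of 10 measured regulators of magnocellular neurons 0 were called. Otp, Pou3f2, Sim2 and Creb3l1 were flat, and Rasd1, a small GTPase that osmotic stimuli induce, had an SD of 0.20 and a difference of 0.04 (SE 0.13).

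Of the 16 genes listed as peptides and markers of paraventricular and supraoptic neurons 4 were called lower in the C group and 2 higher. Other cells of the hypothalamus can make the same genes, Gad2 and Th among them, so these calls cannot be assigned to those neurons. The difference of Crh was -0.18 (SE 0.16, FDR 0.00423). Also lower were Gad2, which makes the transmitter GABA (-0.14, SE 0.08), Cartpt, an appetite-related peptide (-0.10, SE 0.05), and Trh, the precursor of thyrotropin-releasing hormone (-0.09, SE 0.08). Cck, which magnocellular oxytocin neurons also make, was higher by 0.20 (SE 0.15), and Th, the enzyme that starts dopamine synthesis, by 0.14 (SE 0.26). Cck stood at 9.45 in Chow 1, 8.61 in Chow 2, 9.07 in Chow 3, 8.87 in Chow 4 and 8.81 in Chow 5. All P rats lay between 8.64 and 8.85. Chow 1 also had the highest score of cortex and hippocampus markers (0.64, described below). Whether such tissue added to its Cck signal was not tested. Pdyn, the dynorphin precursor that vasopressin neurons also make, was not called (-0.04, SE 0.05, FDR 0.0745). Of these, r with Oxt beside that of Crh was 0.51 for Gad2, 0.47 for Trh, 0.17 for Cartpt, 0.03 for Th, -0.09 for Pdyn and -0.39 for Cck, and r with Avp lay between -0.45 (Th) and 0.16 (Cck).

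Activity markers, which neurons raise when stimulated, ran in both directions. Fos was called lower (-0.13, SE 0.14, FDR 0.00971) and Egr4 higher (0.23, SE 0.25, FDR 0.0201) in the C group, and 6 of the 9 measured genes were flat. Fos was 8.52, 8.15, 8.53, 7.90 and 8.32 in Chow 1 to Chow 5, and the P rats lay between 8.18 and 8.56. Egr4 was 7.68 in Chow 1, and the other C rats, at 6.38 to 6.76, lay within the range of the P group (6.36 to 6.90). The other probe sets of Fos (0.000139) and Egr4 (-2.16e-05) were not called. Among 10 genes of osmotic sensing and of the glia that surround magnocellular neurons, Gfap, the astrocyte filament, was higher by 0.16 (SE 0.12, FDR 0.0183). Aqp4, the water channel of astrocytes, was higher by 0.09 (SE 0.07, FDR 0.0417), while its other probe sets, at 0.04 and -4e-05, were not called. Gfap had an r of -0.73 with Oxt and 0.12 with Avp, and Aqp4 an r of 0.11 with Oxt and 0.58 with Avp.

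**Figure D5:**
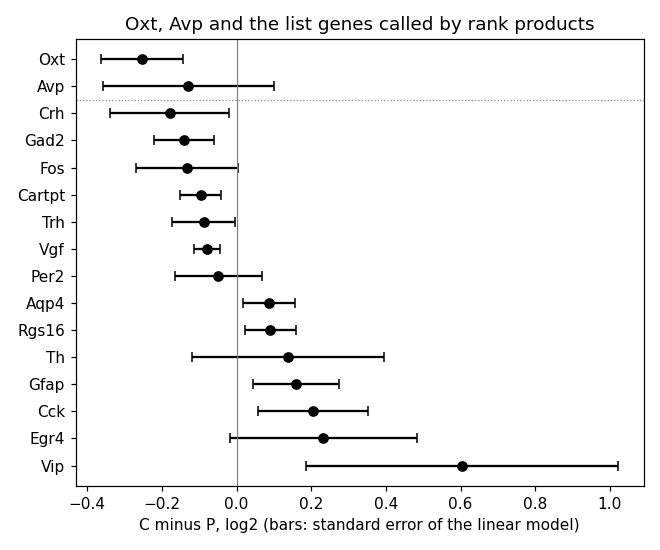
Diet difference (C minus P, log2, points) with the standard error of the linear model (bars) for Oxt and Avp, above the dotted line, and for the 14 genes of the role lists that rank products called. Oxt, at -0.25 with a standard error of 0.11, lies more than 2 standard errors from 0, as does Vgf, and Avp, at -0.13 with 0.23, does not.

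Vasopressin of the suprachiasmatic nucleus is part of the Avp signal of the whole hypothalamus. Of 11 measured genes of that nucleus 1 was called lower and 2 higher. Vip, a peptide of its light-receiving neurons, was higher in the C group by 0.60 (SE 0.42), at 8.56, 7.02, 8.40, 7.04 and 8.17 in Chow 1 to Chow 5 and 6.40, 7.34, 7.66, 7.01 and 7.77 in Powder 1 to Powder 5. Chow 1 and Chow 3, the highest rats in Vip, were the second highest and the lowest rat in Avp, and over the 10 rats Vip had an r of 0.07 with Avp. Rgs16 was higher by 0.09 (SE 0.07) and the clock gene Per2 was lower (-0.05, SE 0.12), but not by its other probe set (0.000163). Grp, Prok2, Six6 and Lhx1 were flat.

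Markers of neighboring tissue moved with some of the rats named above. The marker lists, like the role lists, were chosen with earlier results of these data known. For the leptomeninges, 14 of 14 markers were measured and called higher in the C group (20.4% of varying probe sets were), with mean levels of 8.24 to 9.44 among C rats and 7.97 to 9.06 among P rats. Their score of 14 varying genes was 0.80, -0.19, -0.41, 0.64 and -0.19 in Chow 1 to Chow 5 and -0.67, 0.22, 0.41, -0.40 and -0.21 in Powder 1 to Powder 5. Single genes of the list had an r between -0.63 (Dcn) and -0.28 (Ptgds) with Oxt and between -0.22 (Mgp) and 0.08 (Fmod) with Avp. Of 9 measured markers of the anterior pituitary 2 varied, Cga and Tshb, which were highest in Chow 4 and Chow 5, the rats of lowest Oxt, and Prl, Gh1 and Pou1f1 were flat. The mean level of the pituitary list was 6.72 to 7.27 among C rats and 6.70 to 6.74 among P rats. Of 9 measured markers of cortex and hippocampus 4 varied, with a score of 0.64 in Chow 1 and at most 0.02 in the other 9 rats, and their mean level was 7.46 to 7.81 among C rats and 7.42 to 7.53 among P rats. Markers of hypothalamic neurons scored lowest in Chow 1 (-0.25) and between -0.03 and 0.14 in the other 9 rats. Of 8 measured markers of the thalamus 2 varied, Tnnt1 and Gbx2. Their score was -0.06, -0.28, -0.10, -0.20 and 0.01 in Chow 1 to Chow 5. In Powder 1 to Powder 5 it was 0.64, 0.28, -0.08, -0.41 and 0.20. Powder 1, Powder 2 and Powder 5, the rats of highest Oxt, were thus the highest in this score. With Oxt the r was 0.72 for Tnnt1 and 0.43 for Gbx2, and with Avp 0.33 and 0.45. The part of these tissues in the Oxt and Avp values was not tested.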

How the data were processed

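Hypothalamic RNA of 10 rats (5 per group) was labelled from 100 ng and read on 1 array each. In R 2.7.2 the authors turned each scan into probe set values by robust factor analysis (the FARMS method). Deposited were log2 signals between 5.23 and 13.96. This method leaves a probe set almost flat where its probes share no signal. An array has no read depth, so the number of rats limits the precision. The values were used as deposited, with 57 control rows left out and 0 columns unmapped. The array annotation names 1 gene for 20826 probe sets, several for 436 and none for 9780, and the probe set of highest mean stood for a gene in lists.

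Rank products took all 25 pairings of C rats with P rats (100 permutations, FDR below 0.05 in either direction). They were run in Python 3.11.15 (numpy 2.4.6, pandas 2.3.3), and also on simulated data, of which no outcome is used here. Each permutation shuffled the values of an array over its probe sets, which treats flat and varying probe sets alike. Limma 3.58.1 in R 4.3.3 gave standard errors, intervals and p-values, adjusted over 31042 probe sets by Benjamini-Hochberg. Permutation tests of 5 against 5 rats enumerated 252 assignments, and correlations used 100000 resamples at 10 rats and all orders below, with scipy 1.17.1. Figures used matplotlib 3.10.9. Named genes were Oxt, Avp, all receptors, called genes of 7 role lists, and for each member the 5 genes of highest and 3 of lowest r. The 19 lists hold 193 genes, of which 173 were matched. The other 12 lists are markers of hypothalamic neurons, leptomeninges, choroid plexus, anterior pituitary, thalamus, cortex and hippocampus, striatum, oligodendrocytes, astrocytes, microglia, erythrocytes and ependyma with tanycytes. A list score is the mean deviation of its members with an SD above 0.1. Members and lists were chosen with earlier results of these data known. Alternatives were rank sums, limma, an FDR below 0.01, a replicate block, quantile normalization, median centring, filters on SD, level and 1 probe set per gene, medians, leaving out each rat, and leaving out Chow 1 with Chow 4. Leaving out Chow 4 with Chow 5 was added after seeing the data.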

Additional observations from a re-analysis of the deposited data

Results flagged for a closer look

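Dixon's test for a value far from the rest of its group of 5 rats was applied to 37 items (Oxt, Avp, their difference and the named genes), 74 groups in all, of which chance alone flags about 1 in 20. Oxt and Avp held no such value in either group. It marked 4 groups, about as many as that rate gives by chance. Each was in a gene chosen for running with or against Avp, so a shared extreme rat is partly built in. Lamp5 was 8.69 in Chow 1, where the next C rat was at 8.22, and 8.59 in Powder 5, where the next P rat was at 8.35. Reln was 9.83 in Chow 1 and 9.41 in the next C rat. Slc35c2 was 7.87 in Chow 1 and 8.14 in the next lowest C rat. Chow 1 and Powder 5 are the rats of highest Avp. Without Chow 1, r with Avp was 0.70 for Lamp5, 0.90 for Reln and -0.71 for Slc35c2.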

How the results depend on the processing

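The Oxt difference kept its sign under all 23 alternatives (-0.32 to -0.17) and its call under 18 of the 22 that test it (medians give no test), including each of the 10 rats left out (-0.32 to -0.20, FDR at most 0.0106). The call was lost, at the same -0.25, with rank sums, limma, limma with a replicate block (adjusted p = 0.995) and varying probe sets only. The Avp call was lost at the same -0.13 under these 4 and at FDR below 0.01, and at -0.12 without Chow 4 and Chow 5. Leaving out 1 rat gave -0.26 to -0.0027 for Avp, called in 6 of 10, and medians turned it to 0.095. Oxt minus Avp ranged from -0.29 to 0.018 with 1 rat left out, turning without Chow 1 (0.018), and was 0.0044 without Chow 1 and Chow 4. The correlation ranged from -0.047 (without Powder 5) to 0.45 and was -0.050 with a replicate block. The 14 of 74 list genes called became 0 with rank sums or limma, 5 at FDR below 0.01 and 6 without Chow 1 and Chow 4. Fewer list genes were tested among varying probe sets (0 of 18 called) and above the median level (7 of 51 called). Leaving out 1 rat gave 4 to 14, falling by over 1.5 times without Chow 1 (7), Powder 1 (4), Powder 2 (4), Powder 3 (7), Powder 4 (9) or Powder 5 (5). The 544 of 31042 probe sets called became 8 with rank sums, 217 at FDR below 0.01 and 0 with limma. Fewer probe sets were tested among varying ones (5 of 1391 called), with 1 probe set per gene (217 of 14217) and above the median level (221 of 15521). With 1 rat left out the count was 198 to 719, falling by over 1.5 times without Powder 1 (198), Powder 2 (324), Powder 4 (324) or Powder 5 (263). The cause of these changes was not tested. Nothing in the labels pairs the rats by replicate number. Over all probe sets, deviations of same-numbered rats correlated between -0.35 and 0.26, which cannot exclude a pairing in single genes. With a replicate block the SE of Avp in the linear model was 0.12, against 0.23 without it, and that of Oxt 0.12 against 0.11. The rank product with a replicate block still called Oxt (FDR 0) and Avp (FDR 0.0251) and 531 probe sets.

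Each gene was read by 1 probe set, so the differences are those of 1 signal per gene, with no other probe set to set beside it. With 5 rats per group, an Avp difference anywhere between -0.63 and 0.37 is compatible with these arrays (limma 95% confidence interval). Flat probe sets, among them those of all measured receptors, cannot show whether their mRNA differed.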

Other observations

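Hypothalamic peptides outside the magnocellular lists ran with Oxt or Avp to different degrees, given here as values over 10 rats without a test. Hdc, the enzyme that makes histamine, had an r of -0.80 with Oxt and -0.02 with Avp and was called higher in the C group. Hcrt, the orexin precursor, had an r of 0.35 with Oxt and -0.63 with Avp, and Pmch, the precursor of melanin-concentrating hormone, 0.45 and -0.44. Hcrt and Pmch were both called lower in the C group. Both genes were lowest of all in Chow 1, at 9.94 for Hcrt and 12.44 for Pmch. The next lowest rat in both was Chow 5, at 10.57 and 12.79. In Avp, Chow 1 was the second highest rat. Whether these 2 calls, or the r of these genes with Avp, hold without Chow 1 was not tested. Tnnt1, a thalamic marker in the lists used here, had an r of 0.72 with Oxt and was called lower.

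Counts below take the probe set of highest mean for each gene. They stand beside 0.815% of all probe sets called lower and 0.944% higher in the C group, or 14.8% and 20.4% of those with an SD above 0.1. The lists were chosen with earlier results known, so these counts are no test of a tissue. The marker lists whose calls by rank products were not given above follow. Of the choroid plexus 1 of 8 measured genes was called higher in the C group (Ttr). Of the thalamus 1 of 8 was called lower (Tnnt1), and of the striatum 1 of 9 lower (Tac1). Of oligodendrocytes 0 of 9 were called, while another probe set of Cldn11, with a difference of 0.0564, was called. Of astrocytes 2 of 9 were called higher (Gfap and Aqp4), and of microglia 0 of 10 were called. Of erythrocytes 2 of 4 were called higher (Hbb and Alas2). Of 8 genes of ependyma and tanycytes 1 was called higher (Rarres2) and 1 lower (Tmem212). Of 13 measured markers of hypothalamic neurons 4 were called lower and 1 higher, and of 9 of cortex and hippocampus 1 each way (Lamp5 lower and Slc17a7 higher). Ttr, the transthyretin of the choroid plexus, had an r of 0.12 with Oxt and 0.02 with Avp.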
